A study of Mus musculus with 4 samples.

Results

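Sialyltransferases are Golgi enzymes that place sialic acid at the ends of sugar chains. The 10 members of this family described here are St3gal1 to St3gal6, St6gal1, St6galnac1, St6galnac2 and St6galnac6, out of 20 sialyltransferase genes of the mouse. They were found by gene symbol and fill 11 of 31227 rows of the count table, since St6galnac2 has 2 entries. RNA sequencing measured them in colonic epithelial cells of mice aged 8 to 10 weeks given 3.5% DSS in the drinking water for 5 days, then plain water until they were killed on day 7. DSS, dextran sulfate sodium, damages the lining of the colon and causes colitis. The 2 wild-type (WT) libraries (replicates 1 and 3) were compared with 2 libraries from mice with an epithelial knockout of Smad4 (Smad4 KO, replicates 1 and 2). All 4 libraries are from DSS-treated mice, so the comparison is between genotypes under DSS and says nothing of DSS itself. The promoter that drives the deletion, the sex of the mice and whether libraries come from separate animals were not given in the sources used here. Spreads and p-values measure only the difference between these libraries, which may be technical. The members were chosen by symbol with their CPM and their genotype differences in these same 4 libraries already known. Their differences are therefore given as a description, with no p-value.

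The enzymes are named for the bond they form and the sugar they act on. ST3Gal enzymes attach sialic acid to the 3-position of a galactose, ST6Gal enzymes to the 6-position of a galactose, and ST6GalNAc enzymes to the 6-position of an N-acetylgalactosamine (GalNAc), the sugar that starts the O-glycans of mucins. In the colon, sialic acid caps the glycans of the mucus gel and of epithelial surface glycoproteins, where it shields the chains from bacterial glycosidases and serves as a ligand for lectins of the host and of microbes. Smad4 is the common Smad, which joins the receptor-activated Smads of the TGF-β and BMP pathways to regulate genes.

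The libraries held 42577920 to 67927291 counts. The unit of level is CPM, counts scaled to library size after TMM normalization, and a count of 1 stood for 0.0150 to 0.0229 CPM. Smad4 itself was at 152 and 180 CPM in the WT libraries and at 51.5 and 41.1 CPM in the KO libraries, in the direction of the labels. The keratin Krt8, an epithelial marker, was at 5580 to 6201 CPM in all 4 libraries. Across the 15838 genes tested, 15.2% passed in either direction (edgeR quasi-likelihood test, adjusted p under 0.05), 8.83% as higher and 6.40% as lower in Smad4 KO. Markers of other cells differed between the genotypes. Of 6 neutrophil markers 5 were higher and none lower, with a summed level of 103 to 130 CPM in WT and 427 to 439 CPM in KO. Most of the sum came from Ly6g, at 116 and 93.3 CPM in WT and at 330 and 319 CPM in KO. Which cells gave the Ly6g RNA was not tested, so the sum is not read as a level of neutrophils. S100a9 had 4.44 and 3.37 CPM in WT and 43.3 and 42.6 CPM in KO (edgeR adjusted p = 0.000434). The leukocyte antigen Ptprc rose 2.57-fold (edgeR adjusted p = 0.00408). Higher in KO were also 2 of 6 macrophage markers (summed 10.4 to 11.9 CPM in WT and 33.4 to 35.8 CPM in KO), 2 of 6 fibroblast markers (26.3 to 26.7 CPM and 51.7 to 57.3 CPM) and 1 of 6 T cell markers (3.51 to 4.56 CPM and 9.13 to 10.1 CPM). That T cell gene, Cd4, had no count in WT and did not pass when any 1 of the 4 libraries was left out. In the fibroblast sum, Fbln1 went from 10.0 ± 0.400 CPM in WT to 31.4 ± 4.67 CPM in KO. Of the 6 fibroblast markers 4 had both KO libraries above both WT libraries, and 2, Col1a1 and Col3a1, overlapped. Both KO libraries also lay above for 6 of 6 neutrophil, 6 of 6 macrophage and 5 of 6 T cell markers. For B and plasma cells it was 1 of 2 tested markers and for endothelium 2 of 4. Of all tested genes 31.0% had both KO libraries above. None of the 2 tested B and plasma cell markers and none of the 4 tested endothelial markers passed. Of the 8 epithelial markers 3 were higher and 1 lower, of the 8 goblet cell markers 2 and 3, and of the 8 absorptive colonocyte markers 5 and 3. The part of these other cells in the values below was not tested, and in such bulk samples fewer cells of a type and less RNA per cell cannot be told apart.

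Among the members, St3gal4 stood apart. It went from a minor to a major transcript of the family in the KO libraries, St3gal1 was higher by more than 3-fold, St3gal3 slightly higher, and St3gal6 and St6gal1 lower. Of the 11 entries 10 had enough counts to be tested, 3 of these were past the threshold as higher and 2 as lower in KO, and 5 were not past it, where 15.2% of all tested genes passed. For 4 entries both KO libraries lay above both WT libraries, for 3 both lay below, and for 3 the genotypes overlapped. Of all tested genes 59.4% did not overlap, 31.0% with KO above and 28.4% with KO below. The median log2 fold change of the 10 tested entries was 0.23, beside 0.01 for all genes tested. Over the alternative fits, 5 member entries passed beside 21.8% of all genes with DESeq2's Wald test and beside 16.7% with limma-voom. Without Smad4 KO replicate 1 or 2 it was 3 entries, beside 5.95% and 5.93% of all genes. Since the contrast helped choose the members, these counts describe them and support nothing further.

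**Figure D1:**
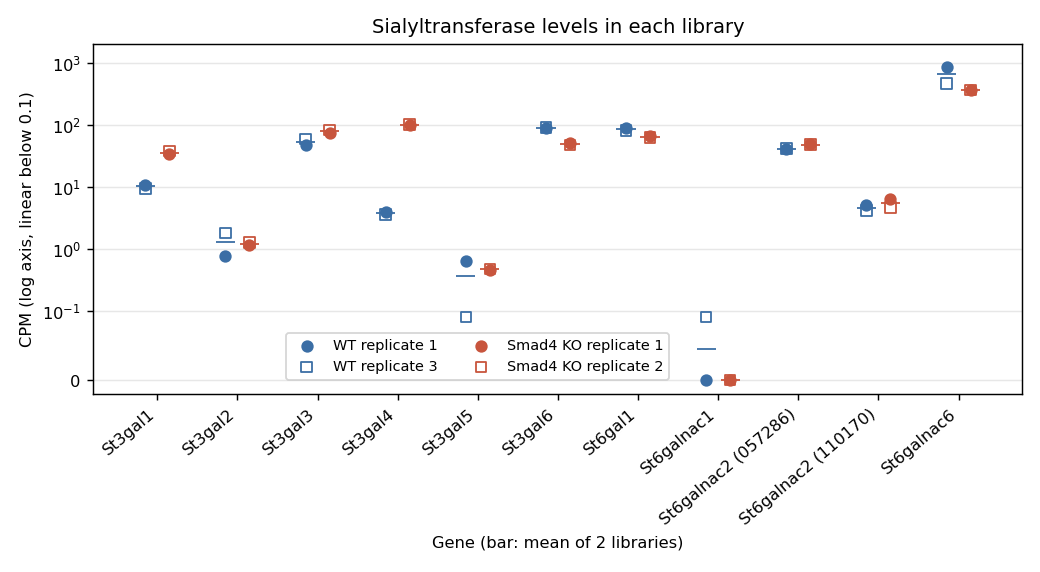
Level of each sialyltransferase entry in CPM (log axis, linear below 0.1) in the WT libraries (blue) and the Smad4 KO libraries (red), with filled points for replicate 1, open squares for the other replicate and a bar at the mean of 2 libraries; St6galnac2 appears as its 2 Ensembl entries, marked by the last digits of their IDs. St3gal4 shows the widest gap between the genotypes' means on the log scale among the 10 tested entries (3.62 to 3.95 against 101 CPM), and St6galnac6 the widest gap in CPM between the WT libraries (844 and 459 CPM).

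St3gal3, St3gal4 and St3gal6 encode enzymes that add sialic acid to galactose at the ends of N-acetyllactosamine chains, the terminal structure of many N-glycans and O-glycans and the base of sialyl Lewis antigens. St3gal4 (ENSMUSG00000032038, minus strand of chromosome 9, 35046576 to 35119268 on GRCm38) had 3.95 CPM in WT replicate 1 and 3.62 CPM in WT replicate 3. It had 101 CPM in each KO library. Behind these levels stood 224 and 158 counts in WT and 6053 and 6758 counts in KO. The groups were far apart and the libraries of a genotype close together, with means of 3.79 ± 0.230 CPM in WT and 101 ± 0.428 CPM in KO (SD, n = 2). The KO level was 26.6-fold higher (log2 fold change 4.73, SE 0.0968), and over 10 alternative fits the log2 fold change lay between 4.68 and 4.79. In the annotation, 412 exon bases of St3gal4 (14.1%) are shared with 4930581F22Rik, a gene on the opposite strand that has no row in the count table. The strandedness of the libraries was not given in the sources used here, and reads from such overlaps cannot be told apart.

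St3gal3 (ENSMUSG00000028538, minus strand of chromosome 4, 117932154 to 118134914) had 47.7 and 59.5 CPM in the WT libraries. In the KO libraries it had 75.1 and 82.4 CPM. Both KO values were above both WT values, by 1.47-fold in the mean (log2 fold change 0.56, SE 0.126). Its place past the threshold was lost without WT replicate 1, without either KO library and with library totals in place of TMM. St3gal6 (ENSMUSG00000022747, minus strand of chromosome 16, 58468125 to 58524243), whose enzyme contributes to sialyl Lewis X, had 88.3 and 91.2 CPM in WT. It had 50.1 and 47.7 CPM in KO, so that the groups did not overlap and KO was 1.83-fold lower (log2 fold change -0.88, SE 0.0722). Its direction and its side of the threshold were the same in the 10 alternative fits. Of its exon bases 1603 (26.0%) are shared with Dcbld2 on the opposite strand, which had 4.63 to 5.71 CPM in the 4 libraries.

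Per kilobase of exon, which allows levels of different genes to be compared, these 3 genes together had 32.9 and 37.5 CPM per kb in WT and 69.7 and 72.2 CPM per kb in KO. St3gal4 made up 4.11% and 3.31% of this sum in the WT libraries. It made up 49.4% and 48.0% in the KO libraries, while the share of St3gal6 was 43.5% and 39.4% in WT and 11.6% and 10.7% in KO. St3gal3 held 52.4% and 57.3% in WT and 38.9% and 41.3% in KO. These are shares of RNA per length and not of enzyme.

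**Figure D2:**
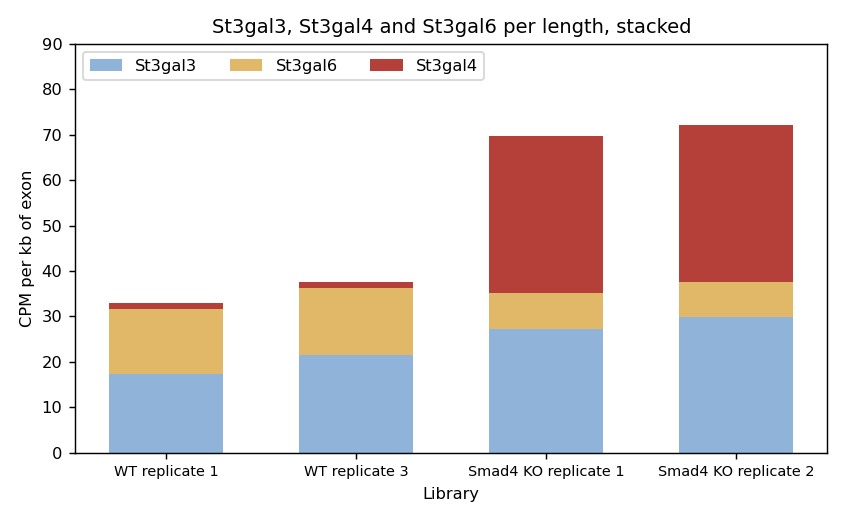
Stacked levels of St3gal3 (blue), St3gal6 (yellow) and St3gal4 (red) in each of the 4 libraries, in CPM per kb of exon. The sum was 32.9 and 37.5 in the WT libraries and 69.7 and 72.2 in the KO libraries, and St3gal4 made up 48.0% to 49.4% of it in KO.

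The 250 bases before annotated starts of these 3 genes are shown because their enzymes act on N-acetyllactosamine chains and their levels differed in opposite directions between genotypes. They come from RefSeq on GRCm38.p6, 5′ to 3′ on the gene's strand (minus for all 3), and capitals mark matches on either strand to the GC box GGGCGG, the CCAAT box CCAAT and the Tead motif GGAATG. The windows are chr9:35116865-35117114 for St3gal4, chr4:118134947-118135196 for St3gal3 and chr16:58524254-58524503 for the outer of the 2 starts of St3gal6.
St3gal4: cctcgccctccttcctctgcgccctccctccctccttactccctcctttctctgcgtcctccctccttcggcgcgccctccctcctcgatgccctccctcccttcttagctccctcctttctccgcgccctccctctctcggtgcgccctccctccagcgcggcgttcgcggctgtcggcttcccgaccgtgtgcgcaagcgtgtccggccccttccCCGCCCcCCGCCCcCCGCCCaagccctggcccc
St3gal3: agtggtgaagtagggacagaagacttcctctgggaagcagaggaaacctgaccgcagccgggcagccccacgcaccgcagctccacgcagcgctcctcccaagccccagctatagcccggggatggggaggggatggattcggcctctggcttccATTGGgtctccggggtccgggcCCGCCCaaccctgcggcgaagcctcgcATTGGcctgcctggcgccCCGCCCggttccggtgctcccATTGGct
St3gal6: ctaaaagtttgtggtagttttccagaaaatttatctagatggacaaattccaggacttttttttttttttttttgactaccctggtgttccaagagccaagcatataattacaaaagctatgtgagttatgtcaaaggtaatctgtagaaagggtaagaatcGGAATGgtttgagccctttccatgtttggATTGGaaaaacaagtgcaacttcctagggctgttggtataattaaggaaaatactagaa
The St3gal4 window had 72.8% G and C and 3 GC boxes, 33, 26 and 19 bases before the start, and no CCAAT box. All of its 250 bases lie in an exon of 4930581F22Rik on the opposite strand. The window also lies inside the annotated span of St3gal4, whose outer end is at 35119268, and overlaps a St3gal4 exon by 9 bases. It therefore precedes an inner start and not the outermost start of the gene. St3gal3 had 68.4% G and C with 2 GC boxes and 3 CCAAT boxes. The St3gal6 window was rich in A and T (34.8% G and C) and held 1 CCAAT box and 1 Tead motif, while the window of its inner start (58523427 to 58523676) had 64.4% G and C and 4 GC boxes, a pair of which overlap by 1 base. Of 32851 windows of 250 bases in the RefSeq table, 32.7% held a GC box, 8.47% held 3 or more, 33.8% held a CCAAT box and 12.6% a Tead motif. The Smad motif CAGAC, which 42.2% of the windows hold, and the Smad palindrome GTCTAGAC, which 0.167% hold, had no match in the 3 windows. A match is a run of letters and not a binding site, and these windows are a small part of each gene's surroundings. The RefSeq table matched 6 of the 10 members, with 9 windows, and CAGAC occurred in 1 of them, an inner start of St6gal1.

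St3gal1 and St3gal2 encode enzymes that cap core 1, the galactose-GalNAc unit of mucin-type O-glycans. St3gal1 (ENSMUSG00000013846, minus strand of chromosome 15, 67102875 to 67176830) had 10.9 and 9.47 CPM in the WT libraries. It had 33.6 and 38.0 CPM in the KO libraries, 3.52-fold more with no overlap (log2 fold change 1.82, SE 0.130), and it stayed past the threshold in the 10 alternative fits. St3gal2 (chromosome 8, 110919922 to 110972480) was low, with 0.776 and 1.81 CPM in WT and 1.16 and 1.27 CPM in KO, and the genotypes overlapped. The log2 fold change of St3gal2 was -0.08 (SE 0.511), with -0.58 without WT replicate 1 and 0.65 without WT replicate 3. Together the 2 genes had 1.74 CPM per kb in each WT library and 5.13 and 5.80 CPM per kb in the KO libraries. St3gal5 (chromosome 6, 72097592 to 72154571), whose enzyme makes the ganglioside GM3 from lactosylceramide, was near the limit of detection. Its level was 0.635 and 0.0917 CPM in WT, from 36 and 4 counts, and 0.466 and 0.480 CPM in KO. No difference of St3gal5 was detectable at this depth (log2 fold change 0.36, SE 0.970), and its value rests on which WT library is used: 2.33 without WT replicate 1 and -0.42 without WT replicate 3.

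St6gal1 (ENSMUSG00000022885, plus strand of chromosome 16, 23224740 to 23360350) encodes the main enzyme that caps N-acetyllactosamine with sialic acid at the 6-position. N-acetyllactosamine chains were also named above for ST3Gal3, ST3Gal4 and ST3Gal6, but whether these enzymes use the same chains in these cells was not tested. It had 89.7 and 80.5 CPM in WT and 67.2 and 62.1 CPM in KO. KO was 1.32-fold lower without overlap (log2 fold change -0.40, SE 0.0882), but the gene was not past the threshold without WT replicate 1 or without either KO library. The summed level per kb of St3gal3, St3gal4 and St3gal6 was 1.80 and 2.29 times that of St6gal1 in the WT libraries. In the KO libraries it was 5.10 and 5.72 times that of St6gal1. Like the shares above, these ratios depend on the gene length used.

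The ST6GalNAc enzymes act on the GalNAc of O-glycans or on gangliosides. St6galnac6, which acts on gangliosides and is known in human colon for the synthesis of disialyl Lewis a, was the most abundant member in every library. St6galnac6 (ENSMUSG00000026811, plus strand of chromosome 2, 32599709 to 32620806) had 844 CPM in WT replicate 1 and 459 CPM in WT replicate 3. The KO libraries were close together and below both, at 367 and 365 CPM. With this spread in WT the difference was not past the threshold (log2 fold change -0.83, SE 0.274). It was past it without WT replicate 1 (log2 fold change -0.34) and without WT replicate 3 (log2 fold change -1.20), so the size of the difference rests on which WT library is used. St6galnac4, which is no member, ends 10 bases before the annotated start of St6galnac6 on the same strand. The longest run of identical bases between transcripts of St6galnac4 and St6galnac6 was 20. Whether reads of either gene were counted for the other was not tested. Summed, the pair had 907 and 524 CPM in WT and 394 and 379 CPM in KO, a log2 fold change of -0.89 (SE 0.249) that was not past the threshold, in a comparison chosen after the values were seen.

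St6galnac2 sialylates the GalNAc of core 1 and has 2 entries on the minus strand of chromosome 11. The longer, ENSMUSG00000057286 (116675303 to 116694868), had 41.5 and 41.3 CPM in WT and 48.4 and 47.7 CPM in KO. The shorter, ENSMUSG00000110170 (116677483 to 116681290), shares 383 exon bases with it and had 5.15 and 4.17 CPM in WT and 6.42 and 4.65 CPM in KO. Neither entry was past the threshold, with log2 fold changes of 0.21 and 0.25. The longer entry shares 497 of its exon bases (8.58%) with 1810032O08Rik on the opposite strand. Summed, the 2 entries had 46.7 and 45.5 CPM in WT and 54.8 and 52.4 CPM in KO, a log2 fold change of 0.22 (SE 0.0788). St6galnac1 encodes the enzyme that makes sialyl-Tn and is known as a sialyltransferase of intestinal goblet cells. St6galnac1 (ENSMUSG00000009588, minus strand of chromosome 11, 116765025 to 116775507) had 0 counts in WT replicate 1, 4 counts (0.0917 CPM) in WT replicate 3 and 0 counts in both KO libraries, a result that allows up to 0.0237 CPM in KO (3 counts over the 2 libraries, counting error only). The goblet cell mucin Muc2 was at 8943 and 9309 CPM in WT and at 14202 and 14292 CPM in KO. St6galnac1 was not tested for want of counts. Since the counting tool and its handling of multi-mapped reads were not given, these values do not tell a near absence of the transcript from reads that were not counted.

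Ordered by level per kb of exon, the WT libraries had St6galnac6 first (135 ± 56.6 CPM per kb), followed by St3gal3 (19.4 ± 3.001), St6gal1 (17.3 ± 1.32) and St3gal6 (14.5 ± 0.333). The ranges of St3gal3 and St6gal1 overlapped. Next came the longer St6galnac2 entry (7.15 ± 0.0261), the shorter (2.77 ± 0.409), St3gal1 (1.48 ± 0.143) and St3gal4 (1.296 ± 0.0788). St3gal2 (0.257 ± 0.145), St3gal5 (0.139 ± 0.147) and St6galnac1 (0.0192 ± 0.0271) overlapped with their neighbours at the bottom. In the KO libraries St3gal4 took place 2 (34.6 ± 0.146 CPM per kb), behind St6galnac6 (76.0 ± 0.294) and ahead of St3gal3 (28.5 ± 1.86) and St6gal1 (13.1 ± 0.739). St3gal6 (7.92 ± 0.269) lay behind the longer St6galnac2 entry (8.30 ± 0.0795), and no neighbours in the KO order overlapped. St3gal4 thus stood at place 8 of 11 in WT and at place 2 in KO. The sum over all members was 239 and 161 CPM per kb in the WT libraries and 177 and 178 CPM per kb in the KO libraries. In this sum the genotypes overlapped. Without St6galnac6 the sum was 64.3 ± 1.38 CPM per kb in WT and 101 ± 0.652 CPM per kb in KO. Within the latter sum, St3gal4 alone went from 1.296 to 34.6 CPM per kb.

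The family's other 10 genes were left out when the members were proposed, with earlier results of these data known. Counts and p-values of these genes are therefore also a description. Of the 10 genes, 5 had enough counts to be tested. None of these rose and 2 fell, where 8.83% and 6.40% of all genes did, and their median log2 fold change was -0.11. St8sia5, which adds further sialic acids to those of gangliosides, was at 26.9 and 24.2 CPM in WT. It was at 1.65 and 0.974 CPM in KO, 19.6-fold lower (log2 fold change -4.29, SE 0.272, edgeR adjusted p = 0.000862). St6galnac4, which sialylates O-glycans that already carry a sialic acid, was at 63.0 and 65.4 CPM in WT and at 27.3 and 13.6 CPM in KO, 3.14-fold lower (edgeR adjusted p = 0.0277). The call for St6galnac4 was lost without WT replicate 1 (edgeR adjusted p = 0.0601) and without WT replicate 3 (edgeR adjusted p = 0.0708). St8sia1, the GD3 synthase, averaged 1.55 ± 0.597 CPM in the WT libraries and 3.42 ± 1.04 CPM in those of KO, with an edgeR adjusted p of 0.129. St8sia4, a polysialyltransferase, averaged 0.308 ± 0.0136 and 0.815 ± 0.305 CPM, with an edgeR adjusted p of 0.206. St8sia2, St8sia3 and St6galnac5 had no count. Over all 20 genes, with 15 entries tested, 3 entries were past the threshold as higher and 4 as lower.

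**Figure D3:**
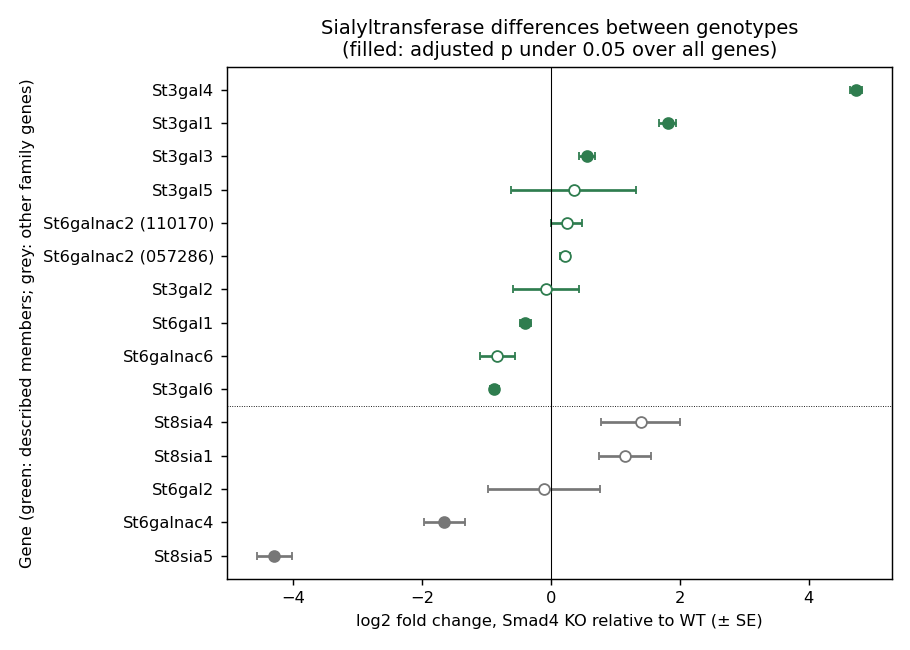
Log2 fold change of Smad4 KO relative to WT with its standard error for the 10 tested entries of the members (green) and 5 other tested genes of the family (grey); filled points have an adjusted p under 0.05 over all genes. St3gal4 lies at 4.73 and St8sia5 at -4.29, the ends of the family's range.

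Sialyltransferases use CMP-sialic acid, which is built in the cytosol and nucleus and carried into the Golgi. The list for this supply and the other lists around sialylation were chosen with earlier results of these data known. Their counts and p-values are therefore given as a description. Of the 5 genes for this supply, all tested, 1 rose and 1 fell, where 8.83% and 6.40% of all tested genes did. The median log2 fold change of the 5 was -0.17 (0.01 over all tested genes). This median includes Nanp at -0.97 (SE 1.50), which had 8.27 CPM in Smad4 KO replicate 1 but 0.0300 CPM in Smad4 KO replicate 2. Nans, the sialic acid phosphate synthase, fell 1.49-fold (513 ± 5.56 to 344 ± 9.51 CPM, edgeR adjusted p = 0.00261). Slc35a1, the Golgi carrier of CMP-sialic acid, was 1.22-fold higher (173 ± 0.435 to 212 ± 11.9 CPM, edgeR adjusted p = 0.0443). This call was lost without any 1 of the 4 libraries (edgeR adjusted p = 0.0766 to 0.258) and with library totals (edgeR adjusted p = 0.0745). Gne, which opens the pathway, averaged 408 ± 7.76 and 361 ± 0.807 CPM (edgeR adjusted p = 0.0859). Cmas, which activates sialic acid with CMP, had 291 ± 13.3 and 324 ± 13.8 CPM (edgeR adjusted p = 0.189).

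Genes that modify or remove sialic acid moved in both directions. Of 9 tested, 1 rose (8.83% of all genes) and 3 fell (6.40% of all genes), with a median log2 fold change of -0.09 beside 0.01. Neu3, a plasma membrane sialidase that acts on gangliosides, was at 11.5 and 10.9 CPM in WT and at 0.665 and 0.540 CPM in KO, 18.6-fold lower (log2 fold change -4.22, SE 0.216, edgeR adjusted p = 0.000493). Neu1, the lysosomal sialidase and the most abundant gene of this list, had 165 ± 3.05 and 161 ± 7.43 CPM (edgeR adjusted p = 0.782). Cmah, which converts the acetyl form of CMP-sialic acid to the glycolyl form, rose 2.49-fold (13.5 ± 0.606 to 33.6 ± 0.987 CPM, edgeR adjusted p = 0.00169). Casd1, which O-acetylates sialic acid, fell 1.83-fold (139.5 ± 7.80 to 76.1 ± 0.0869 CPM, edgeR adjusted p = 0.00192). Siae, which removes such O-acetyl groups, fell 1.43-fold, at an edgeR adjusted p of 0.0261. It no longer passed when WT replicate 3 or either KO library was left out, with edgeR adjusted p from 0.0633 to 0.175.

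Galactosyltransferases build the ends that ST3Gal and ST6Gal enzymes cap. Of 11 tested, 3 rose and none fell, beside 8.83% and 6.40% of all genes, with a median log2 fold change of 0.36 beside 0.01. C1galt1, the core 1 synthase, rose 1.48-fold (317 ± 19.7 to 468 ± 1.10 CPM, edgeR adjusted p = 0.00521). Its chaperone C1galt1c1 had 43.4 ± 0.624 and 55.5 ± 5.02 CPM (edgeR adjusted p = 0.0675). B4galt6, a lactosylceramide synthase, rose 2.27-fold (70.4 ± 11.9 to 159.7 ± 3.76 CPM, edgeR adjusted p = 0.00423). B3galt2 rose 6.91-fold from a low level (2.38 ± 1.42 to 16.6 ± 1.59 CPM, edgeR adjusted p = 0.0122). It did not pass once Smad4 KO replicate 1 was left out (edgeR adjusted p = 0.0527). The most abundant, B3galt5, had 1308 ± 26.0 and 1365 ± 28.8 CPM (edgeR adjusted p = 0.425).

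Other enzymes add fucose, GalNAc or sulfate near the same chain ends. Of 8 tested, 3 rose and 3 fell, against 8.83% and 6.40% over all genes, with a median log2 fold change of -0.54 against 0.01. B4galnt2, which adds GalNAc next to a 3-linked sialic acid to form the Sda antigen, rose 2.02-fold (225 ± 7.54 to 453 ± 0.924 CPM, edgeR adjusted p = 0.00062). Fut2, which makes the H antigen in gut mucus, rose 1.74-fold (434 ± 9.82 to 754 ± 6.40 CPM, edgeR adjusted p = 0.000786). Fut9 and Fut4, which add the fucose of Lewis X structures, were both lower in KO, Fut9 by 7.36-fold (31.0 ± 0.552 to 4.20 ± 0.973 CPM) and Fut4 by 1.86-fold (149 ± 1.11 to 80.2 ± 1.59 CPM), at edgeR adjusted p = 0.000931 for Fut9 and 0.00123 for Fut4.

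Lectins that read sialic acid on other cells were low in all libraries. Of 10 listed, 4 were tested, 1 rose and none fell (8.83% and 6.40% of all genes), and the summed level of the list was 3.67 to 4.84 CPM in WT and 7.80 to 8.24 CPM in KO. Their median log2 fold change was 1.68 beside 0.01 for all genes, and the same with Siglecg taken at its lower bound. Siglecg had no count in WT and was at least 7.88-fold higher in KO, from 3 counts over the WT libraries. It was tested only because of its counts in KO (13 and 17), which can raise the median. This median therefore supports nothing further. Cd33, a myeloid Siglec, was the gene that rose, from 1.06 ± 0.170 to 3.22 ± 0.243 CPM (3.02-fold, edgeR adjusted p = 0.0239). Its call was lost without either KO library and without WT replicate 3 (edgeR adjusted p = 0.0543 to 0.151). Siglecf, the most abundant of the list in WT, overlapped between the genotypes (2.39 ± 0.907 and 2.27 ± 0.312 CPM, edgeR adjusted p = 0.932). Siglece had 0.492 ± 0.147 and 1.68 ± 0.211 CPM (edgeR adjusted p = 0.0551). In the same libraries Ptprc was 2.57-fold higher in KO, and its part in these values was not tested.

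**Figure D4:**
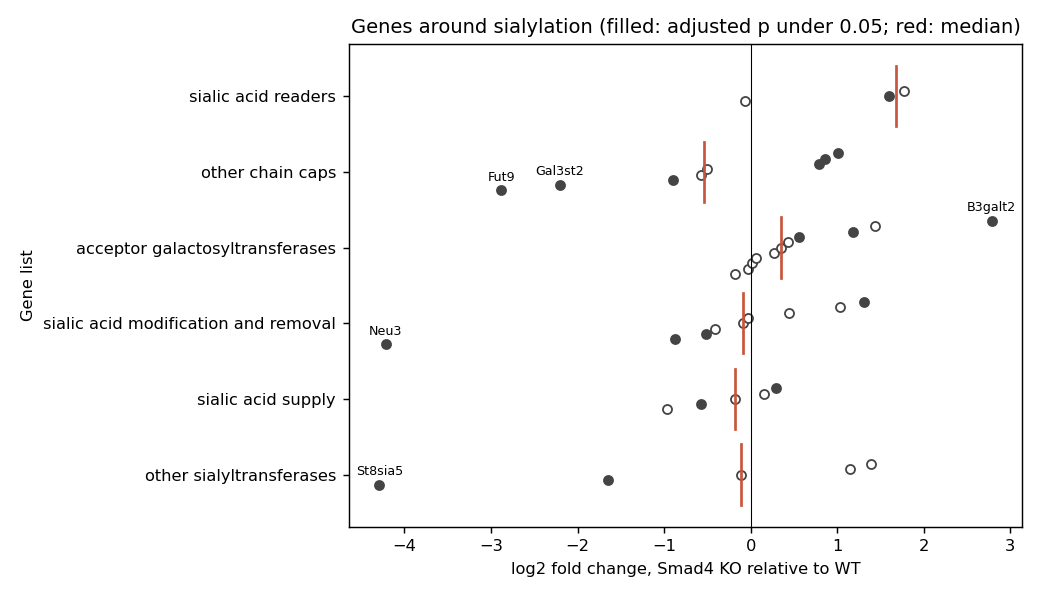
Log2 fold change of Smad4 KO relative to WT for the tested genes of 6 lists around sialylation, with filled points for an adjusted p under 0.05 over all genes and a red bar at each list's median; Siglecg, without a count in WT, is not drawn. Neu3 (-4.22) and St8sia5 (-4.29) lie farthest to the left.

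The protein-coding genes nearest to the members on either side were examined in the same fit, since position played no part in choosing the members. Of 18 such genes 14 were tested, 1 rose and 1 fell, 14.3% against 15.2% of all genes. Ndrg1, 133234 bases from St3gal1, rose 2.08-fold (154 ± 2.85 to 321 ± 1.87 CPM, edgeR adjusted p = 0.000554). St6galnac4, next to St6galnac6, fell as given above. Beside St3gal4, Dcps averaged 19.6 ± 0.0257 CPM in WT against 16.5 ± 0.536 CPM in KO (edgeR adjusted p = 0.189), and Kirrel3 had 0.314 ± 0.0547 and 0.666 ± 0.517 CPM (edgeR adjusted p = 0.451). Both neighbours of St3gal4 are named although their values did not pass, because St3gal4 differed most.

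The 5 genes whose centred log2 CPM over the 4 libraries lay closest to that of St3gal4 were Atp8b4, Ms4a4a, B430218F22Rik, Samd5 and Hoxd3os1, at distances of 0.222 to 0.294 log2 units. Samd5 had 2.05 and 1.67 CPM in WT and 40.4 and 43.1 CPM in KO. The other 4 had no count in WT and 0.798 to 1.12 CPM in KO, so that their distance depends on the prior count of 2 used in the logarithm. With 4 libraries in 2 groups this likeness is a description of the genotype difference alone.

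Sequence that genes of the family share was also measured, since reads from shared runs can be counted for either gene. Over 209 pairs of entries of different genes, the longest run of identical bases between any of their transcripts was 38, for St3gal5 and St8sia4, and the median was 13.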

How the data were processed

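RNA was measured in 4 libraries of colonic epithelial cells (total RNA, 1.5 µg a library, primed with random hexamers, per the labels' protocols). The authors deposited whole-number counts per Ensembl gene, not normalized. FastQC 0.19.7, HISAT2 2.1.0, SAMtools 1.9 and StringTie 1.3.3b are named, with GRCm38 (mm10), per the submitters' processing notes. The counting tool, annotation, strandedness and handling of multi-mapped reads were not given in the sources used here. Columns were matched to libraries by title (0 left over). Symbols, positions and exon lengths came from GENCODE M21, which named 31207 of 31227 IDs.

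Of 19618 genes with a count, filterByExpr kept 15838. After TMM scaling, the quasi-likelihood test of edgeR 4.0.16 (glmQLFit and glmQLFTest in R 4.3.3) had genotype as its only term, with Benjamini-Hochberg adjustment over all tested genes and a threshold of 0.05. The SE is the log2 fold change divided by the square root of F. CPM per kb divides CPM by the merged exon length of a gene. Values after ± are SDs over 2 libraries. The fit was tested on simulated data.

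The members, the 6 lists around sialylation and the 10 marker lists were chosen with earlier results of these data known; 1 gene of these lists is not reported here. Named are all members, up to 4 genes of the smallest p and the most abundant gene of each list, neighbours that passed and the 5 genes most like St3gal4; others, such as Dcps, Kirrel3, Nanp and Ninl, were chosen after their values were seen. Alternatives were DESeq2 1.42.0 size factors or library totals, no filter or 1 CPM in 2 libraries, the DESeq2 Wald test, limma-voom (limma 3.58.1), each library left out, the longest transcript as length, and overlapping entries summed (added after seeing the data).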

Additional observations from a re-analysis of the deposited data

How the results depend on the processing

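Leaving out a library moved the number of genes called over all genes from 2412 to between 975 (without Smad4 KO replicate 2) and 2573 (without WT replicate 1), and 978 were called without Smad4 KO replicate 1. The number of member entries past the threshold moved from 5 to between 3 (without either KO library) and 6 (without WT replicate 3), beside 5.93% to 15.6% of all genes in those 4 fits; a library left alone in its genotype is assumed to vary like the other genotype. With library totals it was 4, without WT replicate 1 also 4, and it was 5 in the other fits. St3gal1, St3gal4 and St3gal6 were past it in all 10 planned fits. Of the 42 tested genes around sialylation 18 passed, beside 15.2% of all genes; the count ran from 15 (5.93% of all genes without Smad4 KO replicate 2) to 25 (21.8% with DESeq2's Wald test). Since the lists around sialylation were chosen with earlier results known, these counts describe them and support nothing further. DESeq2's Wald test called 5 neighbours of members in place of 2, beside 21.8% in place of 15.2% of all genes. With 1 library left out, the log2 fold change of Neu1 lay between -0.0824 and 0.0161 (the latter without Smad4 KO replicate 1) and that of the B cell marker Ms4a1 between -0.0313 (without WT replicate 1) and 1.299. For Siglecf it was 0.0184 with limma-voom, -0.426 without WT replicate 1 and 0.383 without WT replicate 3. Among the members the sign turned for St3gal2 (-0.58 to 0.65), St3gal5 (-0.42 to 2.33) and the shorter St6galnac2 entry (-0.00118 to 0.46). None of these 6 entries passed in any fit that tested it, and the cause was not tested. With the longest transcript as length, 17 of 22 places in the level order were kept, and St3gal4 stood at place 7 in WT and 2 in KO. No paired analysis was possible because the genotypes share only replicate number 1. Few counts limit St3gal2, St3gal5 and St6galnac1.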

Other observations

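Nanp, which encodes the phosphatase of sialic acid synthesis, had 7.95 and 8.26 CPM in the WT libraries and 8.27 CPM in Smad4 KO replicate 1, but 0.0300 CPM in Smad4 KO replicate 2. Its log2 fold change of -0.97 had an SE of 1.50 and did not pass (edgeR adjusted p = 0.727). Nanp shares 146 exon bases (9.81%) with Ninl on the same strand. Ninl and Nanp summed had 9.50 and 9.79 CPM in WT and 10.4 and 3.15 CPM in KO (edgeR adjusted p = 0.592), so the low value of 1 library stayed in the sum.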
